A study of Mus musculus with 13 samples.

Results

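Gene expression in the wild type mouse forebrain was compared between embryonic day E13.5 and the newborn (postnatal day P0.5). The comparison takes every array that its label gives as wild type, 3 at E13.5 and 3 at P0.5, which is 6 of the 13 arrays of the series, and no Atrx-null array enters it. The wild type mice were male littermates of Atrx-null mice on a C57BL/6 x 129/Sv background, received no treatment that the labels name, and served as the controls of a study of the chromatin remodeler ATRX. In that study floxed Atrx was removed by Cre recombinase in the forebrain, and the sources used here do not say whether the wild type controls carried Cre or the floxed allele. Each E13.5 array was hybridized with RNA pooled from 2 forebrains, and for P0.5 the number of forebrains per array is not given. The RNA of the E13.5 and of the P0.5 samples was extracted by different people, so that age and extraction cannot be told apart.

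At E13.5 the walls of the forebrain hold dividing radial glia, which line the ventricles, and the intermediate progenitors they give rise to, and both produce neurons that migrate outward. Deep cortical layers are made before upper ones, and the ganglionic eminences supply the neurons of the striatum and the inhibitory interneurons. By birth most neurons of the cortex and striatum have been made, synapses are starting to form, and the remaining progenitors are turning to astrocytes and oligodendrocytes. The data therefore ask which genes of division, neurogenesis, neuronal differentiation, synapses and glia differ in transcript level between these ages.

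Affymetrix Mouse Genome 430 2.0 arrays measure a transcript as the signal intensity of a probe set. Median signals were 40.1 to 42.7 on the E13.5 arrays and 41.9 to 53.8 on the P0.5 arrays, and each array was centred on its own median after taking log2, so a change is relative to the median transcript. The first principal component carried 52.7% of the variance and separated the ages, and the SD of log2 differences between arrays was 0.72 to 0.91 within an age and 1.10 to 1.26 across ages. E13.5 replicate 2 and P0.5 replicate 3 lay nearer to the other age than the other arrays of their group on that component. E13.5 replicate 2 had the highest median level of the presynaptic and postsynaptic lists and the lowest of the mitosis list among the E13.5 arrays. P0.5 replicate 3 had the highest median level of the mitosis list among the P0.5 arrays. Its summed signal, not centred, over 22 genes of meninges and mesenchyme was 3478, against 6889 and 6943. Leading counts are therefore also given without this pair of arrays, an alternative chosen after seeing the data. Only 3 arrays stand for each age, which limits the precision, and 3 against 3 arrays cannot give an exact permutation p below 0.1.

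Of 45037 probe sets, 3394 (7.54%) were higher and 5014 (11.1%) lower at P0.5 at an adjusted p under 0.05 in limma with Benjamini-Hochberg adjustment, and 2898 (6.43%) and 3888 (8.63%) of the probe sets changed so and by at least 2-fold. With signals left as deposited the split turned to 5226 higher and 4074 lower, since the median log2 fold change over all probe sets moved from -0.10 to 0.13, and with quantile normalization it was 4692 and 4865. The balance between directions is thus set by the scaling, and changes near that shift have no settled sign. Without E13.5 replicate 1, E13.5 replicate 3, P0.5 replicate 1 or P0.5 replicate 2 the number called fell from 8408 to 4708, 4946, 3727 and 4616, and without both E13.5 replicate 2 and P0.5 replicate 3 it was 6241, with 2449 higher and 3792 lower. Taking the brightest probe set of each of 18193 genes, 1673 (9.2%) were higher and 2365 (13%) lower, and the median log2 fold change was -0.09. These shares are the background for the counts that follow. After centring, the P0.5 values lay entirely above the E13.5 values for 18.6% of genes and entirely below for 26.6%. Counts of genes whose ages do not overlap are made on these centred values, and uncentred signals can differ from them.

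**Figure D1:**
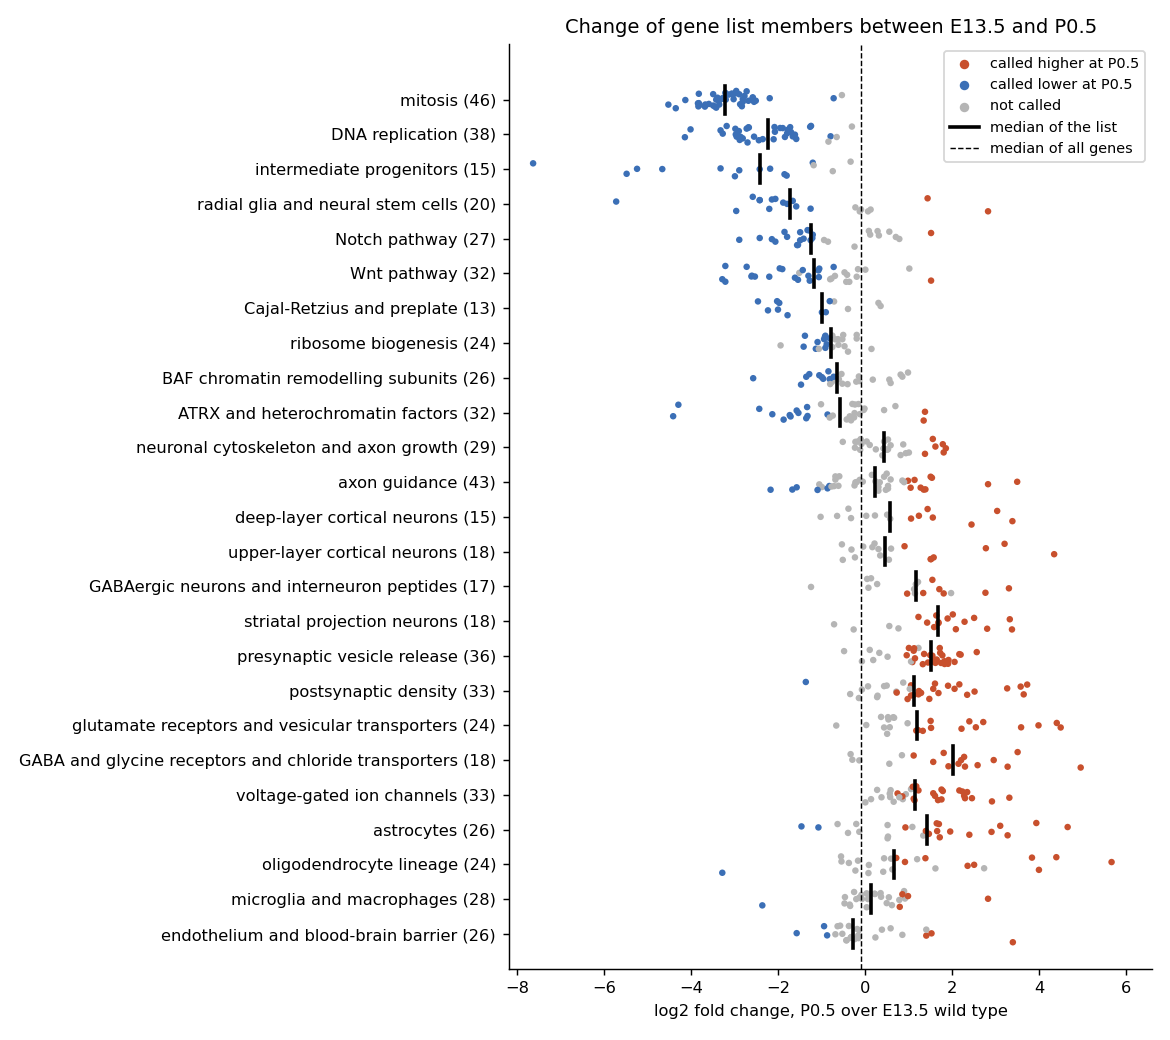
Log2 fold change (P0.5 over E13.5 wild type, limma) of every measured member of 25 gene lists, 1 point a gene, with list sizes in parentheses, the list median as a bar and the median of all genes (-0.09) as a dashed line. Mitosis and DNA replication genes lie almost entirely to the left, with medians of -3.23 and -2.23, and synaptic, receptor and channel genes mostly to the right.

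Genes of cell division fell as a block. Of 46 measured mitosis genes, 45 were lower at P0.5 and 0 higher, with a median log2 fold change of -3.23, where 13% of all genes were lower. Of 38 DNA replication genes 35 were lower and 0 higher, with a median of -2.23. In a tissue sample fewer cells of a type and less RNA per cell cannot be told apart, here and throughout. Plk1, a kinase that drives entry into and progress through mitosis, had signals of 578, 560 and 584 at E13.5 and of 51.3, 74.5 and 59.2 at P0.5, so that it changed by -3.46 on the log2 scale (standard error 0.21, limma adjusted p = 0.0012). Cdk1, the cyclin-dependent kinase of mitosis, gave 1301, 1088 and 1193 against 128, 188 and 122, a change of -3.28 (standard error 0.21, adjusted p = 0.0012). The ages were far apart for both genes and no array of one age came near the other. The motor proteins Cenpe (-3.33) and Kif20a (-3.83), the checkpoint kinases Bub1 (-4.36) and Bub1b (-4.53), the topoisomerase Top2a (-3.85) and the proliferation marker Mki67 (-3.83) fell on the same scale. All 46 mitosis genes had every centred E13.5 value above every centred P0.5 value, against 26.6% of all genes. Bub3, of the spindle checkpoint, was the only mitosis gene not called (log2 fold change -0.54, adjusted p = 0.12). Foxm1, a transcription factor of mitotic genes, is read by 4 probe sets that differ in size of change: the brightest gave -0.73 (adjusted p = 0.04), the next ones -1.43 and -5.37, and the dimmest was not called (-2.05, adjusted p = 0.18). The brightest lost its call when any 1 of the 6 arrays was left out.

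Tk1, the thymidine kinase of S phase, had E13.5 signals of 477, 418 and 510 and P0.5 signals of 31.7, 33 and 27.5, a change of -4.15 (standard error 0.18, adjusted p = 0.00075). Mcm3, a subunit of the replicative helicase, went from 1464, 1224 and 1495 to 82.6, 120 and 100, with a change of -4.02 (standard error 0.22, adjusted p = 0.0011), and all 5 of its probe sets were called lower. Every P0.5 signal of both genes was far below the lowest E13.5 signal. The large subunit of ribonucleotide reductase, Rrm1, fell less, by 2.98 on the log2 scale, and the licensing factor Cdc6 by 3.19. Fen1 (-0.31), Orc1 (-0.66) and Orc6 (-0.85) were the 3 replication genes not called. Without E13.5 replicate 2 and P0.5 replicate 3, 44 of 46 mitosis and 34 of 38 replication genes were lower, with medians of -3.44 and -2.55.

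Inhibitors of the cell cycle did not move as a mirror image. Of 12 inhibitors and pocket proteins 5 were lower and 0 higher, and the count was 3 without any 1 of the E13.5 arrays or of P0.5 replicates 1 and 2. Rbl1, the pocket protein p107, fell from 538, 422 and 465 to 54.7, 64.2 and 81.9 (log2 fold change -3.06, standard error 0.28, adjusted p = 0.0019). The growth arrest gene Gas1 fell by 2.15 and the CDK4/6 inhibitor Cdkn2c by 1.55. Rbl2 (0.22, adjusted p = 0.6) and Cdkn1a (0.32, adjusted p = 0.47) were not called.

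Promoters of these genes are shown because their members moved together. In RefSeq promoter windows of GRCm38.p6, from 250 bases before to 50 after a transcription start, 39 of the 46 mitosis genes had 43 windows. TTTGAA, the core of the cell cycle genes homology region, was found on either strand in 31 of them (72.1%, against 17.9% of all 32851 windows), and the CCAAT box in 33 (76.7%, against 37.4%). Both stood in 27 windows (62.8%, against 6.95%), and 21 (48.8%, against 11.7%) held CCAAT at least 2 times. Of 34 windows of 30 DNA replication genes, 4 (11.8%) held TTTGAA and 19 (55.9%) CCAAT. The E2F-like letters TTTGGCG and TTTCGCG stood in 9 (26.5%, against 1.56%) and 7 (20.6%, against 0.849%) of them, and in 0 and 2 of the mitosis windows. Of 36 windows of 27 presynaptic genes, a list that rose, 7 each held TTTGAA and CCAAT (19.4%), 0 held TTTGGCG, 1 held TTTCGCG and 2 (5.56%, against 0.371%) held TTCAGCACC, part of the site of the neuronal repressor REST, which 0 windows of the mitosis and replication lists held. Some genes have several windows that overlap. These shares describe letters in the windows and are not sites shown to be bound.

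The 120 bases before the start of 5 mitosis genes with several of these letters are printed below with TTTGAA (or TTCAAA on the other strand) and CCAAT (or ATTGG) in capitals, then those of 2 replication genes with TTTGGCG or TTTCGCG (or CGCCAAA or CGCGAAA) in capitals. All run 5′ to 3′ on the strand of the gene and end at the base before the start. They lie at chr10:69352913-69353032 on the minus strand (Cdk1), chr9:70421555-70421674, minus (Ccnb2, a mitotic cyclin), chr4:118437344-118437463, minus (Cdc20, an activator of the anaphase-promoting complex), chr2:164769809-164769928, plus (Ube2c, a ubiquitin-conjugating enzyme of that complex), chr11:99024190-99024309, minus (Top2a), chr1:128359706-128359825, minus (Mcm6, a helicase subunit) and chr9:109875459-109875578, plus (Cdc25a, a phosphatase that activates cyclin-dependent kinases). The log2 fold changes of the 7 genes were -3.28, -3.21, -3.50, -4.14, -3.85, -2.96 and -1.27 in that order, and Cdc25a lost its call without E13.5 replicate 1, P0.5 replicate 1 or P0.5 replicate 2.
Cdk1: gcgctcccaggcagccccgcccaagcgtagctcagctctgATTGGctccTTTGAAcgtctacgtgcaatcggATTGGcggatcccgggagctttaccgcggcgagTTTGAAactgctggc
Ccnb2: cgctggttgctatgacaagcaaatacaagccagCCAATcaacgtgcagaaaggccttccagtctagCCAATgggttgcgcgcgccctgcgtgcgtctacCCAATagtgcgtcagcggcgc
Cdc20: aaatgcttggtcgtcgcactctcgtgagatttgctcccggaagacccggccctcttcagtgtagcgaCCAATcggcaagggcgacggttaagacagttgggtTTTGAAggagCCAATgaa
Ube2c: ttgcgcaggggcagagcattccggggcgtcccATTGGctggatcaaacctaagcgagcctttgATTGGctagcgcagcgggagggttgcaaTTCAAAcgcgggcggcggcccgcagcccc
Top2a: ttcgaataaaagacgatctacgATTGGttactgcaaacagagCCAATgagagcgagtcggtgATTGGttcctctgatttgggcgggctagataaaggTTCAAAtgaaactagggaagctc
Mcm6: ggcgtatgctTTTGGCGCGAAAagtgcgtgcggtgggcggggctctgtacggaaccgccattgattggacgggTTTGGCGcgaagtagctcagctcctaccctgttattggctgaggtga
Cdc25a: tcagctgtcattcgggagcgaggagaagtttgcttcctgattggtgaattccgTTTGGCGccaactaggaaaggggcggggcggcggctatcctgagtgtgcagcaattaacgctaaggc

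In the Ccnb2 segment 3 CCAAT copies begin at positions -87, -54 and -21 relative to the start, and its TTTGAA copies lie outside the printed bases. In Cdc20 a TTTGAA at -18 lies between CCAAT copies at -53 and -8, and in Mcm6 the first TTTGGCG overlaps a CGCGAAA.

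Genes of neural progenitors and of their transit to neurons fell next. Of 15 intermediate progenitor genes 12 were lower and 0 higher (median log2 fold change -2.43), and of 20 radial glia and stem cell genes 13 were lower and 2 higher (median -1.74). Neurog2, a proneural transcription factor of the dorsal telencephalon, had signals of 1838, 1554 and 1493 at E13.5 and of 38.7, 44.1 and 73 at P0.5, a change of -5.25 (standard error 0.35, adjusted p = 0.0013). Its relative Neurog1 went from 242, 189 and 171 to 0.767, 2.39 and 0.849. The P0.5 signals of Neurog1 are so low that its log2 fold change of -7.64 (adjusted p = 0.0011) is not well determined, and it was -3.80 with an offset of 16 added before log2. Eomes, the T-box factor that marks intermediate progenitors, fell by 3.00 on the log2 scale, and Mfap4, a microfibril protein, fell from 190, 202 and 94.9 to 4.22, 4.28 and 3.57.

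Sox3, a SoxB1 factor of neural stem cells, fell from 1629, 1143 and 1719 to 234, 239 and 189 (log2 fold change -2.97, standard error 0.21, adjusted p = 0.0014). Hmga2, an architectural chromatin protein of fetal stem cells, had 1987, 706 and 2123 against 28.6, 39.8 and 28, a change of -5.73 (standard error 0.43, adjusted p = 0.0014). E13.5 replicate 2 was the low array for Hmga2 and still lay far above every P0.5 array. Prom1 (-2.59), Pax6 (-2.43), Nes (-2.43), Vim (-1.89) and Sox2 (-1.67) also fell. Radial glia genes did not all fall, however. Tnc, an extracellular matrix glycoprotein of the stem cell niche, rose on 1 of its 2 probe sets, from 33.7, 64.3 and 81.4 to 354, 548 and 509 (log2 fold change 2.82, standard error 0.38, adjusted p = 0.0053). The glutamate transporter Slc1a3 rose to 1641, 1341 and 680 from 288, 403 and 411 (1.43, adjusted p = 0.026), a call lost without any 1 of E13.5 replicates 1 and 3 and P0.5 replicates 1 and 2. Fabp7 (-0.10), Ptprz1 (0.06), Hopx (-0.13), Ednrb (0.12) and Cdh2 (-0.23), which radial glia share with astrocytes or neurons, were not called, with adjusted p of 0.51 to 0.86. Without E13.5 replicate 2 and P0.5 replicate 3 together, 11 intermediate progenitor and 12 radial glia genes were lower.

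Factors that mark the telencephalon itself were lower at birth. Of 5 measured identity genes 4 fell: Emx2 from 863, 697 and 1212 to 200, 172 and 161 (log2 fold change -2.57, standard error 0.25, adjusted p = 0.0022), Otx1 by 2.21, Lhx2 by 1.73 and Emx1 by 1.66. Six3 had 94, 135 and 136 against 80.5, 87 and 87.3 and was not called (-0.72, adjusted p = 0.084). In all 5 genes every centred E13.5 value lay above every centred P0.5 value, against 26.6% of all genes.

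The Notch pathway keeps progenitors undifferentiated through ligands on neighbouring cells, receptors and Hes effectors. Of its 27 measured genes 16 were lower and 1 higher (median log2 fold change -1.26). Among ligands, Dll1 fell from 1298, 1265 and 992 to 230, 265 and 274 (-2.43, standard error 0.24, adjusted p = 0.0023) and Dll3 by 1.86, and Dll4, also an endothelial ligand, was not called (0.11, adjusted p = 0.76). Among receptors, Notch1 fell from 897, 848 and 745 to 193, 288 and 187 (-2.15, standard error 0.22, adjusted p = 0.0024), Notch3 by 1.55 and Notch2 by 1.50. Of the modifiers and effectors, the glycosyltransferase Mfng fell by 2.90, Hes1 by 2.07 and Hes5 by 1.80. The deltex gene Dtx1, a regulator of Notch signalling, went the other way, from 308, 367 and 275 to 1004, 1070 and 1059 (1.51, adjusted p = 0.0073). 

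Of 32 Wnt pathway genes 19 were lower and 1 higher (median -1.18), and 12 were lower without E13.5 replicate 1 or without P0.5 replicate 1. The receptors Fzd2 (801, 817 and 787 against 125, 143 and 158, log2 fold change -2.73, adjusted p = 0.0016) and Fzd8 (-3.22) fell, as did the extracellular modulators Sfrp1 (-2.21) and Rspo1 (-2.62) and the target gene Axin2 (-1.28). Beta-catenin itself, Ctnnb1, was not called (-0.42, adjusted p = 0.3). The only gene called higher was Dkk3, a dickkopf family member (1.51, adjusted p = 0.022), and that call was lost without any 1 of 5 arrays, all but E13.5 replicate 2, without which 2 genes were called higher.

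Of 16 genes of fetal growth and the Lin28 programme 7 were lower and 1 higher (median -1.04). Igf2bp1, a fetal RNA-binding protein, fell from 882, 600 and 886 to 55.1, 69.2 and 70 (log2 fold change -3.82, standard error 0.26, adjusted p = 0.0013), and the imprinted genes Mest and Dlk1 by 2.70 and 1.82. Igf2, also imprinted and abundant in meninges, was not called (-0.20, adjusted p = 0.66). Myc rose from 124, 136 and 105 to 298, 303 and 295 (1.08, adjusted p = 0.019), a call lost without E13.5 replicate 1, E13.5 replicate 3 or P0.5 replicate 1.

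Of 13 Cajal-Retzius and preplate genes 9 were lower and 0 higher (median -1.0), and the count was 5 without E13.5 replicate 2, P0.5 replicate 1 or P0.5 replicate 2. The transcription factors Barhl2 (40.8, 44.2 and 40.2 against 8.5, 9.34 and 8.54, log2 fold change -2.47, adjusted p = 0.0014), Nhlh2 (-2.24), Ebf2 (-2.03) and Ebf3 (-1.79) fell, while Reln, the secreted product of Cajal-Retzius cells that interneurons also make, was not called (0.30, adjusted p = 0.4). Of 19 ventral progenitor genes 3 were lower and 1 higher, shares near those of all genes. Gsx2 fell by 1.95, Sp8 by 1.41 and Otx2 by 4.95, and Olig1 rose. Sp8 was not called without E13.5 replicate 1, P0.5 replicate 1 or P0.5 replicate 2. Without E13.5 replicate 2, 2 of the list were higher.

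**Figure D2:**
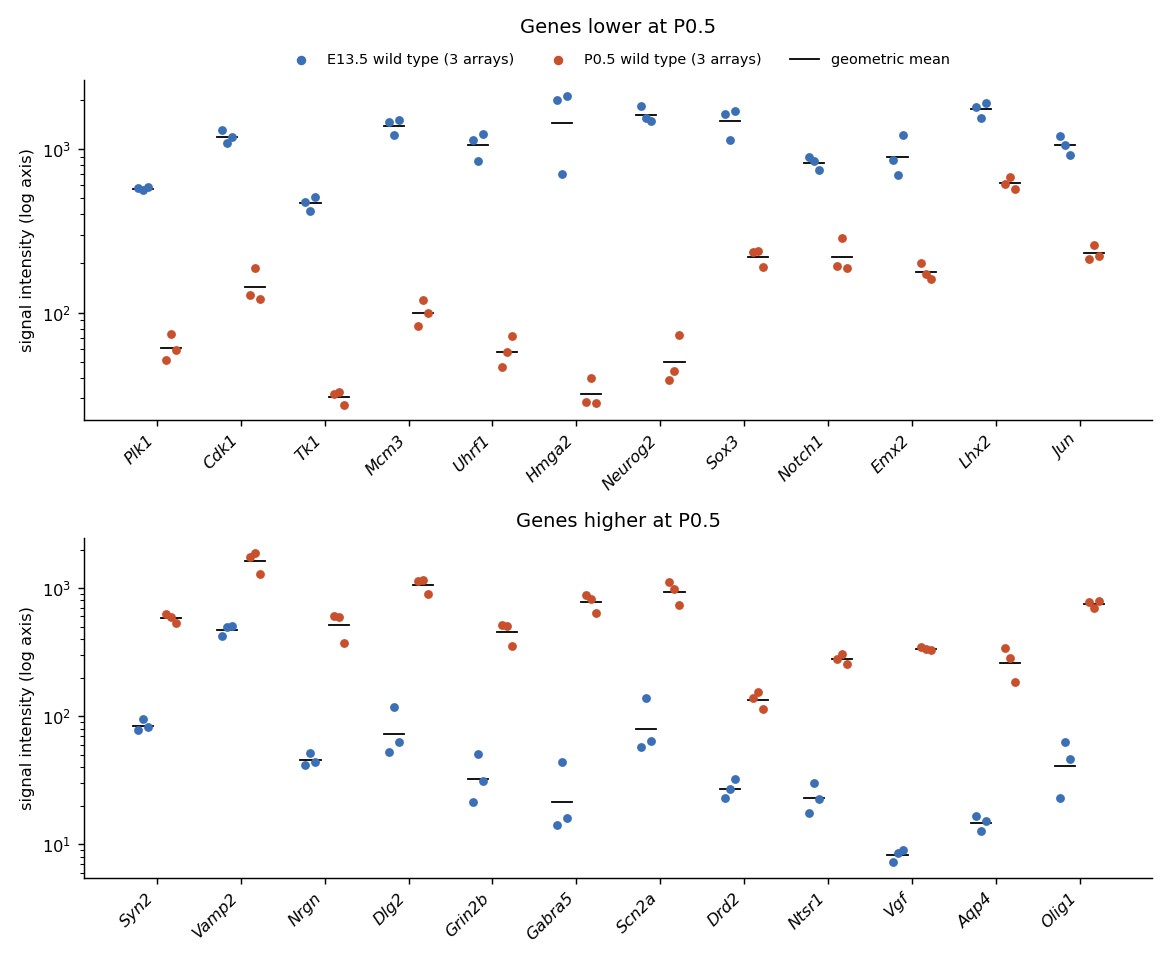
Signal intensity (log axis) of 12 genes lower and 12 genes higher at P0.5 in each of the 6 wild type arrays, blue for E13.5 and red for P0.5, with geometric means as bars. No gene shown has overlapping ages, and E13.5 replicate 2, the middle blue point, is the low array for Hmga2 (706) and the high one for Gabra5 (44.1) and Scn2a (138).

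Some chromatin genes fell as well. Of 26 subunits of the BAF (SWI/SNF) remodeling complex 10 were lower and 0 higher (median log2 fold change -0.66), and 4 were lower without any 1 of the E13.5 arrays or of P0.5 replicates 1 and 2. The complex exchanges subunits as progenitors become neurons. Actl6a, the actin-related subunit of the progenitor complex, fell from 1446, 1099 and 1619 to 271, 277 and 256 (-2.58, standard error 0.21, adjusted p = 0.0015), and 2 of its 3 probe sets were called. Its neuronal counterpart Actl6b had 154, 444 and 212 against 633, 528 and 530, which did not pass the test (0.98, standard error 0.42, adjusted p = 0.16), with E13.5 replicate 2 close to the P0.5 arrays. Ss18 fell from 1004, 822 and 914 to 379, 347 and 426 (-1.48, adjusted p = 0.0092), and the neuronal Ss18l1 was not called (0.55, adjusted p = 0.28). Phf10 fell on 1 of its 2 probe sets (-1.06, adjusted p = 0.034), but not without any 1 of 5 arrays or with its probe sets averaged. The neuronal Dpf1 and Dpf3 were not called (0.85 and 0.58, adjusted p = 0.12 and 0.27). Dpf1 nevertheless had 372, 505 and 282 against 718, 742 and 933, with no overlap of the ages. Thus the progenitor member of each of the 3 pairs was called lower and the neuronal member of none was called higher. Smarcc1 (-1.29, 2 of 4 probe sets) and Brd7 (-1.36, 1 of 2 probe sets) also fell, and neither was called with each gene's probe sets averaged.

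**Figure D3:**
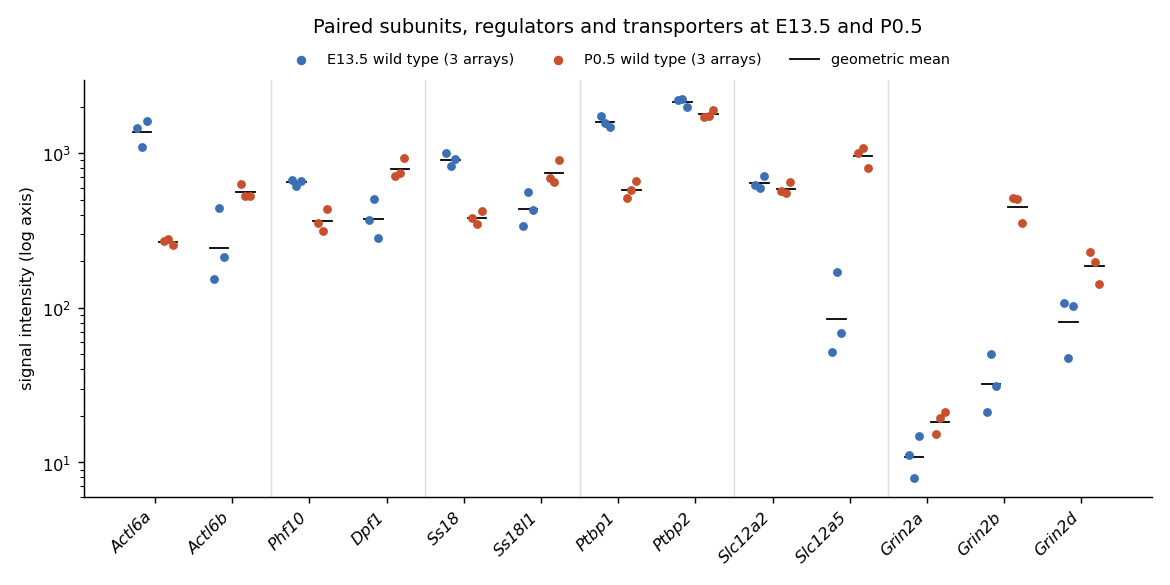
Signal intensity (log axis) in each wild type array of BAF subunit pairs, the splicing regulators Ptbp1 and Ptbp2, the chloride transporters Slc12a2 and Slc12a5, and 3 NMDA receptor subunits, blue for E13.5 and red for P0.5, with geometric means as bars. Actl6a, Phf10, Ss18 and Ptbp1 were called lower and Slc12a5 and Grin2b higher, and the other genes shown were not called.

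Among 32 genes of heterochromatin, DNA methylation and Polycomb, 13 were lower and 2 higher (median -0.59). The largest falls were in Uhrf1, which directs maintenance methylation to replicated DNA (1141, 845 and 1244 against 46.9, 57.7 and 71.7, log2 fold change -4.42, adjusted p = 0.0013), and Hells, a remodeler needed for DNA methylation (-4.30). Suv39h2, a histone H3 lysine methyltransferase, fell by 2.44 and the heterochromatin protein gene Cbx1 by 1.54. Ezh1 (1.37) and the histone variant gene H3f3b (1.34) were the 2 called higher, and neither was called without E13.5 replicate 1, E13.5 replicate 3 or P0.5 replicate 1. Atrx, the gene under study, is read by 7 probe sets that the annotation names with this symbol, none of them called. The brightest had 1549, 1689 and 1553 at E13.5 and 1381, 1391 and 1645 at P0.5 (-0.35, standard error 0.23, adjusted p = 0.35), with overlapping ages.

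The study describes ancestral pseudoautosomal genes that lie on autosomes in the mouse. The list used here also holds genes that the study does not name, among them Crlf2, Gtpbp6 and Il3ra. It has 7 measured genes, of which 1 was higher and 1 lower. Another 9 entries of that list were matched to no named probe set and were not analysed here. Among them were Arse, Asmtl and 1810009N02Rik, the clone that the study proposes as mouse Asmtl. Crlf2, a cytokine receptor subunit, rose from 58.4, 66.7 and 39.5 to 309, 196 and 210 (log2 fold change 1.90, standard error 0.31, adjusted p = 0.01), but was not called without both E13.5 replicate 2 and P0.5 replicate 3. Shox2, a homeobox factor also expressed in the thalamus, fell from 220, 217 and 88.9 to 10.6, 16.5 and 11.1 (-3.93, standard error 0.42, adjusted p = 0.0027). The study counts Shox2 among these genes, although it places human SHOX, and not SHOX2, on the X chromosome. Csf2ra, a GM-CSF receptor subunit, was not called on its brighter probe set (0.44, adjusted p = 0.36) and higher on its dimmer one, from 4.9, 6.29 and 6.67 to 43.8, 24.4 and 56 (2.50, adjusted p = 0.0096). Cd99 (-0.37), Gtpbp6 (0.51), Dhrsx (-0.09) and Il3ra (-0.48) were not called, the last 2 with signals below 20 on every array. Dhrsx is read here by 1 annotated probe set. The study's own Dhrsxy measurement came from another probe set, of an unidentified clone matched by sequence, which does not enter this value.

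RNA-binding regulators of neurons had no common direction (median log2 fold change 0.01). Of 31, 6 were higher (19.4%, against 9.2% of all genes) and 5 lower (16.1%, against 13%). The count higher was 3, 2 and 3 without E13.5 replicate 3, P0.5 replicate 1 and P0.5 replicate 2, close to the share of all genes. Ptbp1, a repressor of neuronal splicing in progenitors, fell on its brightest probe set from 1742, 1560 and 1476 to 512, 580 and 661 (log2 fold change -1.68, standard error 0.24, adjusted p = 0.0064), and its other 2 probe sets were not called. Ptbp2, its paralog in young neurons, was not called (-0.49, adjusted p = 0.17). Rbfox1, a splicing regulator of neurons, rose on all 4 probe sets, from 184, 328 and 159 to 1146, 1415 and 1189 on the brightest (2.32, adjusted p = 0.006). Elavl1, the ubiquitous HuR, fell by 2.74 on its brightest probe set but was called on only 2 of 6. Of 24 ribosome biogenesis genes 10 were lower and 0 higher (median -0.79), but this count was 2, 4, 2, 0 and 1 without E13.5 replicates 1, 2 and 3 and P0.5 replicates 1 and 2. Nolc1, a nucleolar phosphoprotein, fell by 1.42, a call lost without P0.5 replicate 1.

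Of 15 genes of deep cortical layers 7 were higher and 0 lower. The number higher was 4 without E13.5 replicate 1, P0.5 replicate 1 or P0.5 replicate 2, and 2 were lower without P0.5 replicate 3. Of 18 genes of upper layers 7 were higher and 0 lower. Among transcription factors of the layers, Tbr1, Fezf2, Bcl11b and Cux2 were not called and Nr4a2 (1.55, adjusted p = 0.01) rose. Nr4a2 was called on 3 of its 6 probe sets, and not with them averaged. Tbr1 had 818, 801 and 801 against 562, 558 and 693 (log2 fold change -0.65, adjusted p = 0.11), Fezf2 463, 513 and 495 against 254, 229 and 377 (-1.03, adjusted p = 0.064), Bcl11b 0.02 and Cux2 0.54 (adjusted p = 0.96 and 0.2). For Tbr1 and Fezf2 every E13.5 signal was nevertheless above every P0.5 signal. Cux1 was not called on its brightest probe set and lower on 4 of 9. Ntsr1, the neurotensin receptor of corticothalamic neurons, went from 17.4, 30.1 and 22.7 to 277, 303 and 256 (3.38, standard error 0.26, adjusted p = 0.0014), Crym by 3.03 and Ldb2 by 2.44. Among upper layer genes, the exchange factor Rasgrf2 rose from 30.2, 43.8 and 39.3 to 426, 448 and 335 (3.20, standard error 0.22, adjusted p = 0.0013) and Mef2c, a transcription factor of maturing neurons, from 235, 394 and 301 to 2473, 2301 and 2476 (2.77, standard error 0.27, adjusted p = 0.0022). All 5 probe sets of Mef2c were called higher.

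Striatal projection neuron genes rose in 14 of 18, with 0 lower (median log2 fold change 1.68). Drd2, the dopamine receptor of the indirect pathway, went from 22.8, 27.1 and 32.5 to 139, 155 and 113 (2.08, standard error 0.20, adjusted p = 0.0022), and Drd1, that of the direct pathway, rose by 3.32. The enkephalin precursor Penk (2.50), the adenylyl cyclase Adcy5 (2.01, on 1 of its 4 probe sets) and the orphan receptor Gpr6 (3.37) rose too. Of 17 GABAergic and interneuron genes 7 were higher and 0 lower, 3 without E13.5 replicate 3, P0.5 replicate 1 or P0.5 replicate 2. E13.5 replicates differed here: Gad1, a GABA-synthesizing enzyme, had 216, 591 and 387 at E13.5 and 1537, 1430 and 1503 at P0.5 (1.80, standard error 0.39, adjusted p = 0.024). The neuropeptide Npy rose from 64.4, 238 and 141 to 1254, 944 and 915 (2.76, adjusted p = 0.012) and Sst by 1.70. Gad1 lost its call without E13.5 replicate 3 or any 1 P0.5 array, and Sst without any 1 array other than E13.5 replicate 2. Gad2 (0.13, adjusted p = 0.79) and Lhx6, a factor of migrating interneurons (71.6, 288 and 208 against 380, 377 and 513, adjusted p = 0.2), were not called. The median level of this list was 0.90, 2.17 and 1.72 (log2, array median 0) over the E13.5 arrays and 2.81 to 3.03 at P0.5.

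Genes of the neuronal cytoskeleton were already bright at E13.5. Of 29, 6 were higher and 0 lower, 3 without P0.5 replicate 1. Dcx (0.39), Tubb3 (0.43), Map2 (0.24) and Stmn1 (-0.11), which newborn neurons express, were not called, with adjusted p of 0.35 to 0.78. Gap43, of growth cones, rose from 564, 949 and 484 to 2521, 2750 and 2508 (1.80, standard error 0.31, adjusted p = 0.011), Stmn4 by 1.85 and the neurofilament Nefh, a dim gene, by 1.37. Of 43 axon guidance genes 10 were higher (23.3%, against 9.2% of all genes) and 6 lower (14%, near the 13% of all genes). Leaving out 1 array gave 4 to 10 higher and 3 to 9 lower. The fewest came without E13.5 replicate 1, E13.5 replicate 3 or P0.5 replicate 1, when the share higher was also near that of all genes. The adhesion molecules Cntn1 (115, 198 and 123 against 1945, 1896 and 1696, 3.49, adjusted p = 0.0015) and Chl1 (2.82) rose, while the netrin receptor Dcc fell from 899, 1086 and 967 to 354, 336 and 382 (-1.68, adjusted p = 0.0052) and the ephrin Efnb1 by 1.58.

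Synaptic genes rose together. Of 36 presynaptic vesicle release genes 28 were higher and 0 lower (median log2 fold change 1.51), where 9.2% of all genes were higher. Without P0.5 replicate 1 the number of presynaptic genes higher was 19. Of 33 postsynaptic density genes 21 were higher and 1 lower (median 1.11), 13 of them higher without P0.5 replicate 1. Syn2, a synapsin on vesicles, went from 78.5, 94.4 and 81.6 to 632, 591 and 529 (2.56, standard error 0.20, adjusted p = 0.0014). The SNARE proteins Vamp2 (424, 499 and 506 against 1738, 1869 and 1294, 1.54, adjusted p = 0.004, 1 of 2 probe sets), Stx1a (1.71) and Snap25 (2.19) and the vesicle protein Syngr1 (1.64) rose. After centring, every P0.5 value lay above every E13.5 value in 31 of the 36 presynaptic genes, against 18.6% of all genes. On the postsynaptic side Nrgn, a calmodulin-binding protein of dendrites, rose from 41.9, 51.8 and 44.2 to 603, 599 and 371 (3.26, standard error 0.22, adjusted p = 0.0013). The scaffold Dlg2 (PSD-93) rose from 52.1, 117 and 62.5 to 1126, 1157 and 906 (3.64, standard error 0.34, adjusted p = 0.002), whereas its relatives Dlg4 (PSD-95, 0.71) and Dlg3 (0.06) were not called (adjusted p = 0.11 and 0.86). The scaffold binder Dlgap1 rose by 2.51 and the kinase Prkcb by 1.90. The 1 gene called lower was Homer3, which fell from 378, 289 and 384 to 153, 171 and 147 (-1.37, adjusted p = 0.0066). Without E13.5 replicate 2 and P0.5 replicate 3 together, 24 presynaptic and 19 postsynaptic genes were higher.

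Of 24 glutamate receptor and vesicular transporter genes 13 were higher and 0 lower (median 1.19), and of 18 GABA and glycine receptor and chloride transporter genes 13 were higher and 0 lower (median 2.02). Grin2b, the NMDA receptor subunit of the young brain, went from 21.3, 50.6 and 31.2 to 511, 503 and 355 (3.58, standard error 0.34, adjusted p = 0.0022), on 2 of 4 probe sets. Grin2a, the subunit of later stages, stayed dim, with 11.1, 7.93 and 14.8 against 15.2, 19.3 and 21.2 (0.53, adjusted p = 0.28), and Grin2d was not called (0.97, adjusted p = 0.1). Of 6 metabotropic receptors measured, Grm2, Grm3, Grm5 and Grm7 rose and Grm4 and Grm8 were not called. Grm3 went from 17.8, 31.5 and 16.6 to 514, 491 and 551 (4.40, standard error 0.32, adjusted p = 0.0014), Grm5 rose by 4.49, Grm7 by 3.98 on 1 of its 3 probe sets and Grm2 by 1.51. Without E13.5 replicate 2 and P0.5 replicate 3 together Grm2 was not called. The vesicular transporters Slc17a6 (-0.67) and Slc17a7 (0.64) were not called (adjusted p = 0.096 and 0.12).

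Gabra5, a GABA-A receptor subunit of extrasynaptic receptors, went from 14.1, 44.1 and 16.1 to 889, 826 and 639 (4.95, standard error 0.46, adjusted p = 0.002), and Gabra3, Gabra4 and Gabrg1 rose by 2.27, 2.20 and 2.95. The potassium-chloride exporter Slc12a5 (KCC2), which lowers chloride in neurons so that GABA inhibits them, rose from 51.7, 171 and 68.8 to 1006, 1079 and 803 (3.27, standard error 0.45, adjusted p = 0.0058), on both of its probe sets. The importer Slc12a2 (NKCC1) had 619, 599 and 710 against 572, 551 and 650 and was not called (-0.34, adjusted p = 0.34).

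Of 33 voltage-gated channel genes 21 were higher and 0 lower (median 1.13). The number higher was 13, 13, 11 and 12 without E13.5 replicates 1 and 3 and P0.5 replicates 1 and 2. The sodium channel Scn2a of young axons rose from 57.1, 138 and 64.4 to 1109, 975 and 738 (3.31, standard error 0.38, adjusted p = 0.0033) on all 4 probe sets. The potassium channel subunits Kcnab1 (2.91) and Kcnd2 (2.27) and the calcium channel Cacna1d (2.45) rose, and Kcna1, an axonal potassium channel, was not called (0.00, adjusted p = 1).

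**Figure D4:**
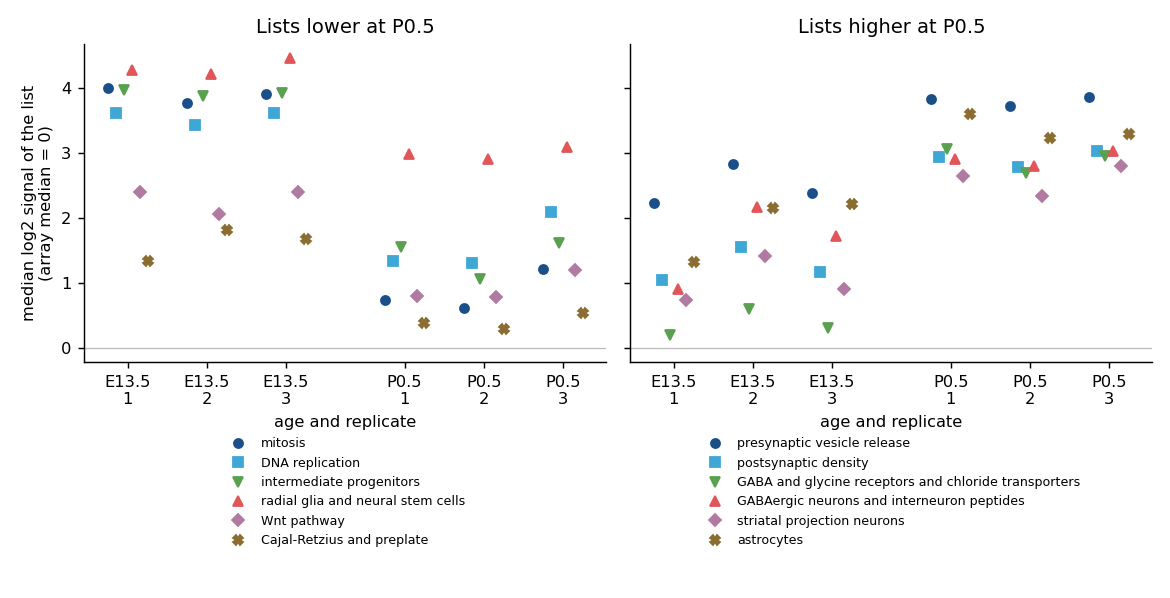
Median log2 signal of 6 lists lower and 6 lists higher at P0.5 in each wild type array, on the scale where the array median is 0. E13.5 and P0.5 arrays separate for every list shown, and E13.5 replicate 2 has the highest E13.5 level of the presynaptic (2.83) and striatal (1.41) lists and the lowest of the mitosis list (3.77).

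Genes induced by activity and secreted peptides rose in part. Of 16 immediate early genes 8 were higher and 2 lower, and 4 were higher without E13.5 replicates 1 or 2 or P0.5 replicates 1 or 2. The zinc finger factors Egr3 (16.3, 20.4 and 29.7 against 266, 233 and 269, log2 fold change 3.35, adjusted p = 0.0016) and Egr1 (2.16) and the nuclear receptor Nr4a3 (2.68) rose. Egr3 was called on 1 of its 2 probe sets. Nr4a3 was called on 1 of 3, and not with its probe sets averaged. Jun, an AP-1 subunit, fell from 1196, 1066 and 918 to 213, 259 and 223 (-2.41, standard error 0.21, adjusted p = 0.0018) and Ier2 by 1.93. Arc and Npas4, both neuronal activity genes, were not called (adjusted p = 0.53 and 0.24). Of 22 neuropeptide and neurotrophin genes 11 were higher and 1 lower, 6, 5 and 7 of them higher without E13.5 replicate 1, P0.5 replicate 1 and P0.5 replicate 2. Vgf, a neuropeptide precursor, went from 7.24, 8.49 and 9.08 to 347, 334 and 326 (5.12, standard error 0.20, adjusted p = 0.00075), with the smallest p of the peptide list. Scg2 (2.47), Nts (2.57) and Crh (2.66) rose, and Nrn1 fell (-1.03, adjusted p = 0.015), a call lost without E13.5 replicate 1, P0.5 replicate 1 or P0.5 replicate 2.

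Astrocyte genes mostly rose, and oligodendrocyte genes did so in part. Of 26 astrocyte genes 15 were higher and 2 lower (median 1.41), 9 of them higher without P0.5 replicate 1 and 1 lower without E13.5 replicate 1, E13.5 replicate 3 or P0.5 replicate 2. The water channel Aqp4 went from 16.6, 12.7 and 15.1 to 342, 284 and 185 (log2 fold change 3.93, standard error 0.24, adjusted p = 0.0012) on all 3 probe sets. The lipid carrier Apoe rose from 69.2, 103 and 108 to 1159, 1159 and 819 (3.27, standard error 0.24, adjusted p = 0.0014). Gfap, the intermediate filament of astrocytes, rose from 50.7, 47.2 and 61.9 to 354, 217 and 103 (1.69, adjusted p = 0.03), with a large spread at P0.5, and lost its call without any 1 of 5 arrays. Fgfr3, a receptor of astrocyte progenitors that radial glia also express, fell from 1092, 802 and 1020 to 441, 372 and 412 (-1.47, adjusted p = 0.0084). P0.5 replicate 3 had the lowest P0.5 signal for Aqp4, Apoe, Gfap and Slc1a3. Of 14 gliogenic transcription factors 0 were higher and 3 lower: Sox9, from 605, 395 and 656 to 138, 141 and 129 (-2.21, adjusted p = 0.0029), Id4 (-1.98) and Nfia (-1.02, not called without any 1 of 5 arrays).

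Of 24 oligodendrocyte lineage genes 9 were higher and 1 lower (median 0.66). Olig1, a factor of the lineage, rose from 22.9, 63.1 and 46 to 776, 693 and 794 (3.99, standard error 0.40, adjusted p = 0.0024), whereas Olig2, also a factor of ventral progenitors, had 72.3, 146 and 148 against 182, 164 and 197 and was not called (0.41, adjusted p = 0.45). Gpr17, a receptor of committed precursors, rose by 5.66 from signals below 6. Omg (4.39), Opcml (3.83) and Cspg5 (2.35), which neurons express as well, account for 3 more of the 9. The myelin genes Mog, Mag and Mobp were not called (adjusted p = 0.22, 0.92 and 0.75). Mbp was not called on its brightest probe set (109, 145 and 142 against 155, 160 and 169) and higher on 4 of 8, among them 1 that went from 21.2, 20.5 and 26.3 to 193, 134 and 103 (2.40, adjusted p = 0.0026). The gene called lower was Tcf7l2, described with the thalamic genes, and it was not called without E13.5 replicate 1, P0.5 replicate 1 or P0.5 replicate 2.

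Of 28 microglia and macrophage genes 4 were higher and 1 lower. Their summed signal, not centred, was 1765 to 2460 at E13.5 and 1828 to 2565 at P0.5. The complement gene C1qa rose from 8.34, 23.4 and 9.73 to 136, 91.3 and 85.1 (2.82, adjusted p = 0.0087). It was the only one of the 4 still called without E13.5 replicate 1 or without P0.5 replicate 1, and 2 were called without E13.5 replicate 3, P0.5 replicate 2 or P0.5 replicate 3. Sall1, which fell from 805, 533 and 937 to 179, 163 and 158 (-2.37, adjusted p = 0.0028), is a microglial factor that neural progenitors also express. With it left out, which was chosen after seeing the data, the summed signal was 1378, 1231 and 1523 at E13.5 and 2305, 2402 and 1670 at P0.5, so that the ages no longer overlapped. Of the 28 genes 12 had every centred P0.5 value above every centred E13.5 value and 1 the reverse, against 18.6% and 26.6% of all genes. Of 26 endothelial genes 3 were higher and 3 lower, the latter 1 without any 1 of the E13.5 arrays or of P0.5 replicates 1 and 2. Their summed signals, not centred, were 4228 to 5232 at E13.5 and 5090 to 5383 at P0.5. After centring, the median log2 fold change of this list was -0.28. Among transporters of the blood-brain barrier, the thyroid hormone carrier Slco1c1 (34.8, 74.8 and 30.7 against 474, 509 and 611, 3.39, adjusted p = 0.0038) and the efflux pump Abcb1a (1.52) rose, and the glucose transporter Slc2a1 fell from 802, 615 and 988 to 354, 269 and 305 (-1.58, adjusted p = 0.0097). The tight junction gene Cldn5 had 233, 320 and 235 against 417, 490 and 455 and was not called (0.58, adjusted p = 0.14). Of 13 pericyte genes 3 were higher, 0 without E13.5 replicate 1, E13.5 replicate 3 or P0.5 replicate 1 and 1 without any 1 of the others, and 1 was lower, Notch3.

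Tissue at the border of the brain is a measured part of these samples. Of 22 genes of meninges and mesenchyme 3 were higher and 5 lower, with 1 higher without any 1 of E13.5 replicates 1 and 3 and P0.5 replicates 1 and 2 and 5 higher without P0.5 replicate 3. Ptgds, the prostaglandin D2 synthase of meninges, rose from 46.7, 53.1 and 41.8 to 2190, 2061 and 894 (4.86, standard error 0.32, adjusted p = 0.0013), while Lum, a matrix proteoglycan, fell from 340, 194 and 353 to 71.1, 99.1 and 39 (-2.36, adjusted p = 0.0071) and Crabp2 by 4.43. Col2a1, the collagen of cartilage, went from 370, 322 and 356 to 3.95, 13 and 24.9 (-5.23, adjusted p = 0.0047). Of 12 choroid plexus and ependymal genes 2 were higher (Kl and Trpm3) and 2 lower (Otx2 and Foxj1), with 1 higher without P0.5 replicate 1 or 2 and 1 lower without any 1 array. Ttr, a carrier protein made by the choroid plexus, was bright on all arrays (2456, 3844 and 2619 against 3676, 3550 and 3353, 0.05, adjusted p = 0.91).

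Of 31 genes of brain regions outside the telencephalon 4 were lower and 1 higher (Egr2, also an immediate early gene, not called without any 1 array other than E13.5 replicate 3), and 15 were below a signal of 50 on all 6 arrays. The share lower, 12.9%, was near the 13% of all genes, and the share higher, 3.23%, was below their 9.2%. The list as a whole thus did not fall more often than other genes. Lhx9, a factor of the thalamus and other regions, fell from 397, 438 and 297 to 67.1, 63.7 and 52.2 (-2.84, standard error 0.23, adjusted p = 0.0015), Irx3 by 2.45 and Shox2 as given above. Irx5 fell by 1.42 (adjusted p = 0.033) and was not called with signals as deposited or without any 1 array other than E13.5 replicate 3. Gbx2 (132, 207 and 29.2 against 9.7, 25.4 and 16.4, adjusted p = 0.053) and, from the oligodendrocyte list, Tcf7l2 (378, 709 and 121 against 40.2, 30.9 and 45, adjusted p = 0.019), both also genes of the thalamus, varied several-fold among the E13.5 arrays. The hindbrain and midbrain genes En1, En2 and Hoxb5 had signals below 13 on every array. The part of dissection in these differences was not tested.

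Embryonic globin genes fell to the bottom of the scale. The embryonic globins Hbb-y (2960, 2796 and 2950 against 5.79, 3.93 and 2.34), Hba-x (2634, 1343 and 2852 against 17.6, 21.8 and 13.2) and Hbb-bh1 (825, 251 and 1285 against 0.938, 1.52 and 1.84), which yolk sac red cells make, fell by 9.82, 7.20 and 9.09 on the log2 scale (adjusted p = 0.00029, 0.00075 and 0.0013). Since the P0.5 signals lie near the bottom of the scale, the sizes are not well determined, and with an offset of 16 they were 7.36, 6.20 and 5.42 lower. Of 13 adult globin and erythroid genes 3 were lower and 0 higher, 1 without any 1 of the arrays other than E13.5 replicate 2. The 4 probe sets that the annotation assigns to several adult globin genes at once, from which no gene is named, ranged from 339 to 4650 in signal, and 1 of them was called, lower at P0.5 (-1.48, adjusted p = 0.015).

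Of 16 glycolysis and creatine kinase genes 7 were lower and 4 higher, with 2 to 4 lower without any 1 of the E13.5 arrays or of P0.5 replicates 1 and 2, and 2 higher without P0.5 replicate 1. Hexokinase Hk2 fell from 393, 237 and 367 to 84.6, 73.7 and 65.4 (log2 fold change -2.35, standard error 0.25, adjusted p = 0.0026) and Pkm, pyruvate kinase, by 1.31, while Hk1 rose by 1.00. Both lactate dehydrogenase genes were called lower (Ldha -0.86, Ldhb -0.77), and neither without any 1 of the E13.5 arrays or of P0.5 replicates 1 and 2. The neuronal enolase Eno2 rose from 80.7, 153 and 94.9 to 878, 712 and 530 (2.49, standard error 0.31, adjusted p = 0.0042), and the platelet-type phosphofructokinase Pfkp rose by 2.74 where the liver-type Pfkl fell by 1.24. Hk1 and Pfkl lost their calls without E13.5 replicate 1, E13.5 replicate 3 or P0.5 replicate 1.

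Of 16 glucocorticoid-responsive genes 6 were higher and 1 lower, 3 of them higher without P0.5 replicate 1. Klf9 went from 55.2, 43.7 and 51.6 to 595, 422 and 345 (2.92, standard error 0.24, adjusted p = 0.0015), the mineralocorticoid receptor Nr3c2 rose by 2.58 and the kinase Sgk1 by 1.64. Hsd11b2, which inactivates glucocorticoids in the fetal brain, fell from 65.6, 88.4 and 94.1 to 26.9, 27 and 29.6 (-1.78, adjusted p = 0.0053). Fkbp5 and Tsc22d3, also targets of the receptor, were not called (-0.24 and -0.32). Of 15 hypoxia-responsive genes 1 was higher and 1 lower (Higd1a, -0.97), the lower count being 0 without E13.5 replicates 2 or 3 or P0.5 replicates 1 or 2 and 2 without P0.5 replicate 3. Ndrg1, which oligodendrocytes also express, rose on all 5 of its probe sets, from 131, 173 and 125 to 606, 558 and 595 on the brightest (1.82, standard error 0.24, adjusted p = 0.0049), and the median of the list was -0.06.

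Among all probe sets with a mean signal of at least 150 at the higher age, the following large rises have not yet been named. They were in Stum (10.5, 8.4 and 4.11 against 728, 669 and 650, log2 fold change 6.35, adjusted p = 0.0012), Met, the hepatocyte growth factor receptor (8.23, 16.5 and 2.26 against 374, 443 and 263, 5.48, adjusted p = 0.0046), Hpcal4, a neuronal calcium sensor (5.18, adjusted p = 0.0092), and Clec2l, a C-type lectin gene (5.17, adjusted p = 0.0012). Their E13.5 signals are near the bottom of the scale, so that size and order are not well determined, and with an offset of 16 the changes were 4.72, 3.75, 3.77 and 3.28. The calcium-binding Caln1 rose by 5.50 and the membrane protein gene Plppr5 by 6.29 on dimmer probe sets, and by 3.38 and 2.15 on their brightest. The 12 genes with the lowest fold changes on this scale, by the same signal minimum, were the embryonic globins, Hmga2, Neurog1 and Neurog2, Mfap4, Igf2bp1, Bub1b, Foxm1, Col2a1 and Pole, the catalytic subunit of DNA polymerase epsilon (268, 220 and 292 against 2.56, 2.91 and 25.4, -5.72, standard error 0.94, adjusted p = 0.0099, and -3.66 with the offset).

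Beta-actin, Actb, was not called (3579, 5055 and 3155 against 3427, 3591 and 4391, -0.25, adjusted p = 0.61). Xist and the Y-linked Eif2s3y were not called either, with Xist at 46 to 104 and Eif2s3y at 206 to 420 over the 6 arrays, all from animals given as male.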

How the data were processed

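Total RNA of 6 wild type forebrains or forebrain pools was hybridized to 1-colour Affymetrix Mouse Genome 430 2.0 arrays. The authors deposited the signal intensity of 45101 probe sets, computed per array and scaled to a target signal of 150. The RMA values named in the methods were not used here. After leaving out 64 AFFX controls, intensities were floored at 0.01, taken to log2, centred on each array's median and tested with limma's moderated test (lmFit and eBayes, limma 3.58.1, R 4.3.3, prior degrees of freedom 2.53) over 45037 probe sets, with Benjamini-Hochberg adjustment and a threshold of 0.05. The fit was tested on simulated data. "Called" means past that threshold.

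Platform annotation gave 34945 probe sets 1 symbol, 932 several and 9160 none, and 34741 matched RefSeq (GRCm38.p6) by Entrez identifier. Each of 18193 genes is represented by its brightest probe set, and 1012 genes were called only on a dimmer one. The 43 gene lists held 914 measured genes. Members and lists were chosen with earlier results of these data known. Named genes were up to 4 members per list by p in the list's main direction and up to 2 in the other, the 12 largest changes per direction among called probe sets with a mean signal of at least 150, and fixed genes. Others, among them most of the members given as not called and Cdc25a, Irx5, Higd1a, Foxj1 and Kl, were chosen after their values were seen. Whether the arrays of an age came from separate litters is not stated, so p-values measure the spread between these arrays.

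Alternatives were quantile normalization, signals without centring, an offset of 16, a signal filter, an intensity trend, array weights, unmoderated variances, the spread of all 13 arrays, a replicate block, averaged probe sets and leaving out arrays.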

Additional observations from a re-analysis of the deposited data

How the results depend on the processing

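No called gene among those named by the stated rules reversed direction under the alternatives run. Against 8408 probe sets called, array weights gave 15613 (5945 higher, 9668 lower), the spread estimated from all 13 arrays 13177 (5123 and 8054), an offset of 16 12254, an intensity trend 11230 and unmoderated variances 5832 (2213 higher). Signals as deposited gave 5226 higher and 4074 lower. Leaving out 1 array gave 3727 to 8234 called, 1603 to 3097 higher and 2124 to 5694 lower. The replicate block gave 3503 (1537 higher, 1966 lower), 3433 of them called in the same direction without it. The numbers do not pair the arrays, since deviations of same-numbered arrays correlated at -0.035, -0.143 and -0.125 and no array correlated best with its own number.

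List medians that moved by more than their spread were, with quantile normalization, radial glia -1.45, cell cycle inhibitors -0.24, Notch -1.0, RNA-binding 0.29, ribosome biogenesis -0.55 and glycolysis -0.36. As deposited they were radial glia -1.51, ribosome biogenesis -0.56, glycolysis -0.46, oligodendrocyte 0.89, endothelium -0.06 and regions outside the telencephalon 0.02. With the offset they were intermediate progenitors -2.11, fetal growth -0.55, oligodendrocyte 0.42 and embryonic globins -6.20. With the dimmer probe sets left out (those under the median of the mean signals) they were intermediate progenitors -2.03, fetal growth -1.4, pseudoautosomal 0.44 and glucocorticoid 0.52. With each gene's probe sets averaged they were telencephalon identity -2.21 and oligodendrocyte 1.09. Leaving out 1 array gave -0.27 to -0.01 for regions outside the telencephalon and 0.71 to 1.25 for glucocorticoid genes. The causes were not tested. Dim probe sets limit the size of large changes. With the offset the log2 changes of Mfap4 (-3.26), Barhl2 (-1.39), Otx2 (-2.79), Gpr6 (1.77), Nefh (0.78), Crh (1.4), Gpr17 (2.79), Omg (2.83), C1qa (1.85), Kl (0.61), Egr2 (0.9) and Nr3c2 (1.59) were smaller by over 1.5 times.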
